A study of Homo sapiens with 8 samples.

Results

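The interleukin-6 (IL-6) family was followed here at the mRNA level through 10 listed genes, the cytokines IL6, IL11, LIF and CLCF1, the receptor chains IL6R, IL11RA, LIFR, OSMR and IL6ST, and the feedback inhibitor SOCS3. The members were all probe sets annotated to one of these symbols alone, which gave 28 probe sets for 9 of the 10 genes, out of 54613 probe sets and 19775 genes in the table. CLCF1 had no probe set of its own in the annotation used and was not analysed here. Each gene is represented by its brightest probe set, that is the largest average across the 8 arrays, called its main probe set. The cells were A549, an established human lung adenocarcinoma line, grown as spheroids (3D), which were formed in hanging drops and then kept on non-adhesive plates, or as monolayers (2D). The 4 groups were 3D cultures treated with tumor necrosis factor (TNF, 10 ng/mL) and transforming growth factor-β (TGFβ, 2 ng/mL), 3D control cultures, 2D cultures treated with the same cytokines, and 2D control cultures. Treatment ran for 2 rounds of 48 hours each, 4 days in all, and is the induction of the epithelial-mesenchymal transition in this model. Each group had 2 Affymetrix U133 Plus 2.0 arrays. The series design calls them biological replicates and the methods call them technical duplicates, so p-values measure the spread between these arrays only. All cells came from 1 line, which limits the groups as a model of lung epithelium.

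IL-6 family cytokines signal through receptor complexes that share gp130, the protein encoded by IL6ST. IL-6 and IL-11 first bind their own receptor chains, IL6R and IL11RA, which then recruit gp130, whereas LIF pairs gp130 with LIFR and oncostatin M pairs it with OSMR or LIFR. The complex activates JAK kinases, STAT3 is phosphorylated and enters the nucleus, and STAT3 induces SOCS3, which binds gp130 and JAK and shuts the signal down. In airway and lung tumor cells the family is known as a link between inflammatory signals such as TNF and growth, survival and the acute phase response.

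The promoters of IL6 and IL11 are shown because these cytokine genes had the largest differences with treatment in spheroids among the members. Both stretches hold the 250 bases before the annotated transcription start on GRCh38.p14, read 5′ to 3′ on the gene's own strand, from RefSeq. The IL6 promoter lies at chr7:22726950-22727199 on the plus strand and the IL11 promoter at chr19:55370464-55370713 on the minus strand. Capitals mark exact matches, on either strand, to 4 motifs that were searched, GGG, any 2 bases and TTTCC for NF-κB, TTCNNNGAA for STAT factors, TGANTCA for AP-1 and CAGACA for SMAD factors.
IL6: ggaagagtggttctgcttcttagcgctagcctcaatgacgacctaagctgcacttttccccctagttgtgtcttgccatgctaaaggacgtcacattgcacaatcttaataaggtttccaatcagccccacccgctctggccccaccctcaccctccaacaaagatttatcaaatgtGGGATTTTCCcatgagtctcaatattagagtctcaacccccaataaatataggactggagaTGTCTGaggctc
IL11: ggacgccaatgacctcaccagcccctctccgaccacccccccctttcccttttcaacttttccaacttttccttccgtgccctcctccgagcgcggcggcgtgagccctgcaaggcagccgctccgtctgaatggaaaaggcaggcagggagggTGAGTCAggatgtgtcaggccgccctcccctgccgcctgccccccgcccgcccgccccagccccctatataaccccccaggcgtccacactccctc

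In the IL6 promoter the NF-κB motif stood at −73 to −64 from the start, and the SMAD motif was on the other strand at −12 to −7. The IL11 promoter held the AP-1 motif at −96 to −90. NF-κB is the factor that TNF activates, SMAD proteins carry the TGFβ signal, and AP-1 is made of JUN and FOS family proteins. Of 35116 promoters of the same length, 1.73% held the NF-κB motif, 6.57% the AP-1 motif, 6.57% the STAT motif and 13.6% the SMAD motif. Of the 8 members with a promoter in the table, IL6R, IL6ST, OSMR and SOCS3 held none of these motifs, IL11RA held the SMAD motif, and LIFR held the STAT motif in 2 of its 3 promoters and the SMAD motif in one of them. A match is a description of the letters and not of binding.

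The 8 arrays were close in overall level, with medians between 2.43 and 2.50 on the log2 scale of the deposited GCRMA values. Of the A549 and epithelial markers, all 9 were above the array median on at least 1 array. Among markers of other cell types, PTPRC, CSF1R, CD3E and CD163 of the 8 leukocyte genes measured, 4 of 6 endothelial genes and 5 of 8 fibroblast genes were below the median on every array. The summed level of the leukocyte list was 7.66 to 7.84 (log2 of the sum) in 3D treated arrays, 9.62 to 9.74 in 3D control, 9.53 to 10.06 in 2D treated and 8.97 to 9.92 in 2D control arrays. Within the list, CD14 differed with treatment in 3D by −2.86 (limma, adjusted p = 0.0477, and 0.0704 to 0.184 when any 1 array was left out). LYZ differed by −2.77 (adjusted p = 0.138), ITGAM by 0.91 (0.200) and CD79A by 0.39 (0.600), and none of these passed the test. The part of this list in the results was not tested. All arrays were of 1 cultured line, so the list is read as transcript levels and not as numbers of leukocytes. In such bulk RNA, fewer cells of the line that express a gene and less RNA per cell cannot be told apart.

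**Figure D1:**
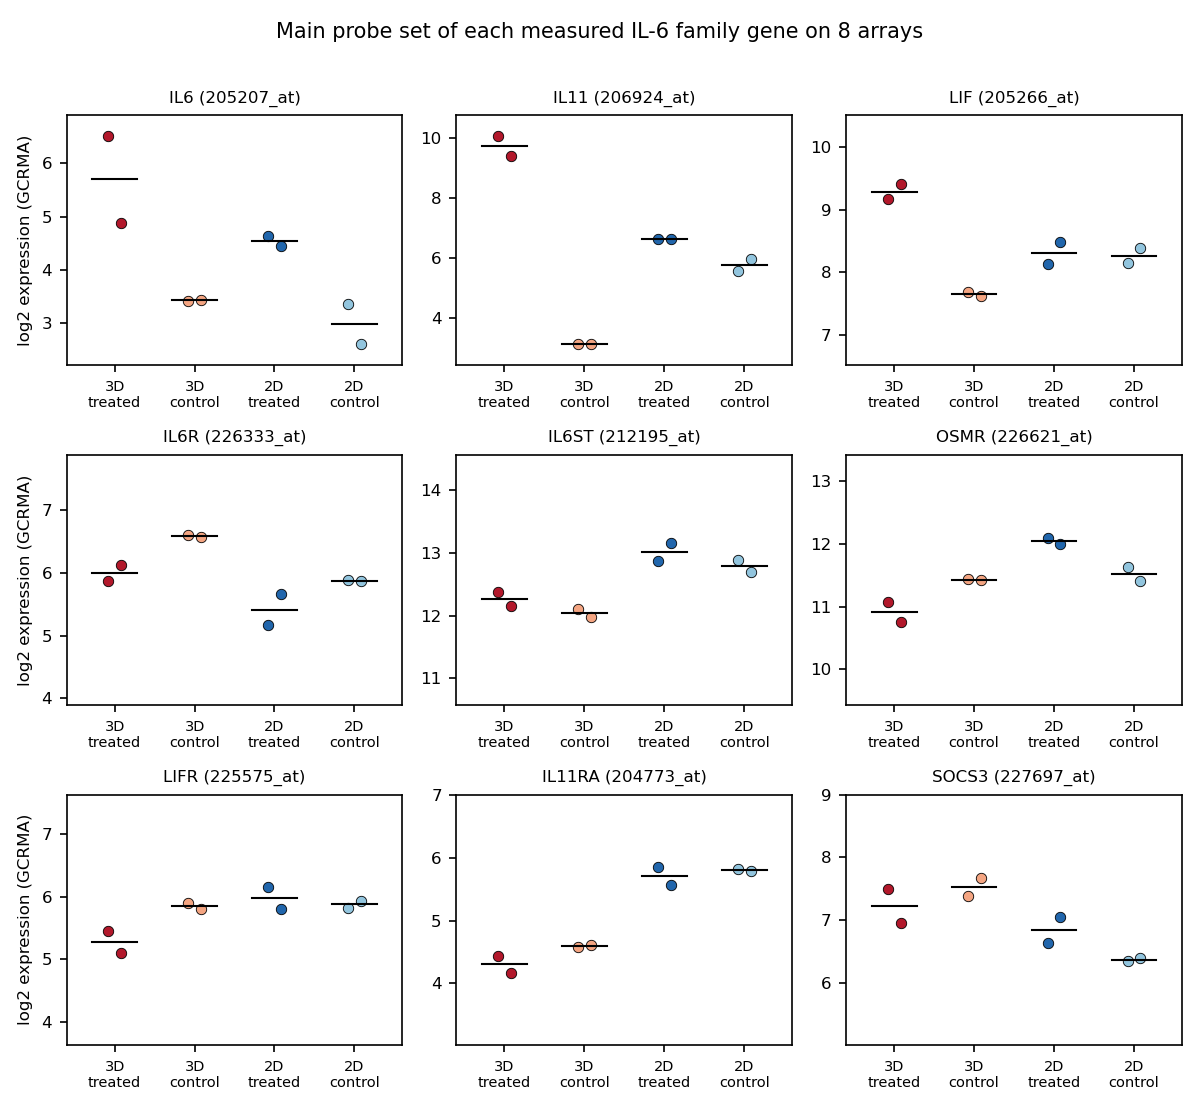
Level of each of the 9 measured IL-6 family genes, 1 panel a gene (y axis, log2 GCRMA value of the main probe set, with its own range in each panel; points are single arrays, horizontal lines are means of 2 arrays). The 3D treated arrays of IL11, at 10.07 and 9.37, stand far above the 3D control arrays at 3.11, and those of LIF stand above all other groups.

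The first question was which members changed when spheroids were treated. IL11 and LIF rose, and the other 7 members did not pass the test. Thus 2 of 9 members were called higher, against 5.53% of all genes (10.8% were called lower and 16.4% in either direction), and the median log2 difference of the 9 members was −0.30 beside a median of 0 over all genes. At an unadjusted p under 0.05 there were 3 members higher and 3 lower. Counts at an unadjusted p have no share of all genes beside them in this text and are not read as a response. Calls here are limma tests with an adjusted p (Benjamini-Hochberg over all probe sets) under 0.05.

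IL11 (chr19:55364382-55370463), a cytokine that TGFβ is known to induce in many cell types, had the largest change of the family. Its log2 level was 10.07 and 9.37 in 3D treated arrays, against 3.11 on both 3D control arrays. In 2D treated arrays it was 6.61 and 6.63, against 5.57 and 5.95 in 2D control arrays. The 4 groups did not overlap, and their order was 3D treated, 2D treated, 2D control and 3D control. The 2 control arrays of 3D carried the same value to every digit, with a spread of 0, and that value was not shown to be above background. Every IL11 difference that involves them is therefore a fitted value whose size and error are not settled. The fitted 3D response was 6.61 on the log2 scale (n = 2 arrays a group), with an adjusted p of 0.00209 in limma. A fit with only the 3D arrays gave an adjusted p of 0.0541.

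In monolayers the response of IL11 was 0.86 ± 0.27 on the log2 scale, with an adjusted p of 0.495 in limma. The fitted difference between the 3D and 2D responses was 5.75, with an adjusted p of 0.0132 in limma. IL11 was the 1 of 9 members that passed the test of this difference, against 3.26% of genes, with 4 members under an unadjusted p of 0.05. With the replicate number as a block the adjusted p was 0.0510. Part of the difference lay in the controls, which the 3D response and the culture comparison share. IL11 was lower in 3D control than in 2D control arrays, with a fitted difference of −2.64 (log2, adjusted p = 0.0188 in limma). It was higher in 3D treated than in 2D treated arrays by 3.10 ± 0.27 (adjusted p = 0.00585), where all arrays had values of their own. The call between the controls was lost without 3D control replicate 1 (0.0639) or replicate 2 (0.0709), without either 2D treated array (0.0514) and without 2D control replicate 2 (0.0622). A second IL11 probe set, 206926_s_at, gave 3.99 and 3.15 in 3D treated arrays, against 2.26 on both 3D control arrays. It lay below the array median outside the 3D treated group, and its difference of 1.32 did not pass the test (limma, adjusted p = 0.0651).

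LIF (chr22:30240453-30246759), a cytokine best known for holding mouse embryonic stem cells in the undifferentiated state, also rose in spheroids. Its log2 level was 9.18 and 9.41 in 3D treated arrays, against 7.68 and 7.63 in 3D control arrays. In 2D treated arrays it was 8.13 and 8.49, against 8.15 and 8.38 in 2D control arrays. The 3D groups were apart and lay on both sides of the 2D groups, which overlapped. The 3D response was 1.64 ± 0.17 on the log2 scale, or 3.11-fold (limma, adjusted p = 0.0116). This call was lost without 3D control replicate 1 (0.0531) or replicate 2 (0.0579) and when the 3D arrays were fitted without the monolayers (0.0683). In 2D the difference was 0.04 ± 0.17 (95% interval −0.41 to 0.49, adjusted p = 1 in limma). The difference between the responses, 1.59 ± 0.24, had an adjusted p of 0.0611 in limma, with a range of 0.0158 to 0.144 over the alternative settings.

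IL6 (chr7:22727200-22731998), the founding cytokine of the family and a classical NF-κB target, gave values that the test did not separate. Its log2 level was 6.52 and 4.87 in 3D treated arrays, against 3.41 and 3.44 in 3D control arrays. In 2D treated arrays it was 4.63 and 4.45, against 3.35 and 2.60 in 2D control arrays. Both treated groups lay above all 4 control arrays. Treated minus control, the log2 difference was 2.28 ± 0.62 in 3D (limma, adjusted p = 0.112), against 1.57 ± 0.62 in 2D (adjusted p = 0.675). The 2 treated spheroid arrays differed by more than any other pair of replicates of a main probe set of the family. Without 3D treated replicate 2 the 3D difference was 3.10 (adjusted p = 0.0273), and without replicate 1 it was 1.45. The 3D call was also made when dim probe sets were filtered out (0.0288). The difference between the responses was 0.71, with a 95% interval of −1.64 to 3.06, and it changed sign without 3D treated replicate 1 (−0.12).

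**Figure D2:**
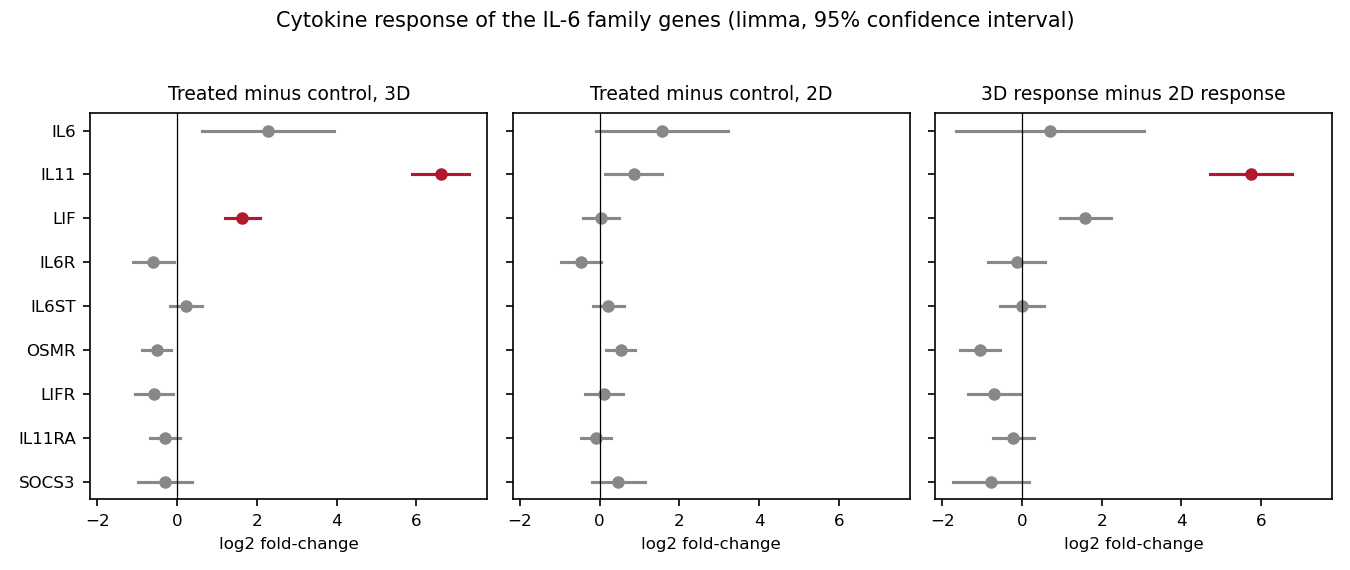
Response to TNF and TGFβ of the main probe set of each member (x axis, log2 fold-change with its 95% interval from limma): treated minus control in 3D (left), the same in 2D (middle), and the 3D minus the 2D response (right). Red marks an adjusted p under 0.05, which IL11 (6.61) and LIF (1.64) reached in 3D, no member reached in 2D, and IL11 (5.75) reached for the difference.

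None of the receptor chains passed the test in their main probe sets when spheroids were treated. IL6ST (chr5:55935095-55994963), the shared signal transducer gp130, had 12.38 and 12.15 in 3D treated arrays and 12.10 and 11.98 in 3D control arrays. In 2D treated arrays it had 12.87 and 13.16, against 12.89 and 12.69 in 2D control arrays. Every 3D array was below every 2D array, while the 2D treated and control arrays overlapped. The response was 0.22 ± 0.15 in 3D (limma, adjusted p = 0.536) and 0.22 ± 0.15 in 2D (0.920). Treated spheroids were lower than treated monolayers by 0.74 on the log2 scale (adjusted p = 0.0392), a call that was lost without any 1 of the 8 arrays, with adjusted p between 0.0590 and 0.138. Between the controls the difference was −0.74 (adjusted p = 0.0645).

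IL6ST had 7 probe sets, of which 2 carried a single value on all arrays. The probe set 212196_at had 9.97 and 10.06 in 3D treated arrays and 9.65 and 9.67 in 3D control arrays. The 2D treated arrays gave 10.36 and 10.38, against 10.17 and 10.07 in 2D control arrays. It passed the test for a rise of 0.36 in 3D (limma, adjusted p = 0.0208). It was lower in treated spheroids than in treated monolayers, by 0.35 (0.0152), and lower in 3D control than in 2D control, by 0.46 (0.0195). The first of these was lost without either 3D control array (0.0503) or either 2D treated array (0.0636 and 0.0785). The call between controls was lost with the replicate block (0.0556), when either 3D control array was left out (0.0677 and 0.0703) and when either 2D treated array was (0.0517). The rise in 3D was lost without 3D treated replicate 2 (0.0532), without 3D control replicate 1 (0.0945) or replicate 2 (0.0869) and without either 2D treated array (0.0589). The probe set with the largest 3D difference, 204864_s_at, gave 0.65 (0.0534). Between cultures it had the opposite sign to the main probe set, at 0.23 between treated arrays (0.459) and 0.10 between controls (0.966), and neither passed the test. The remaining probe sets that varied had the sign of the main one, and none of their culture differences passed. Between treated arrays 204863_s_at gave −0.93 (limma, adjusted p = 0.0650) and 211000_s_at −0.41 (0.416). Between controls they gave −0.48 (0.394) and −0.23 (0.783).

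OSMR (chr5:38846012-38945579), the chain that pairs with gp130 to bind oncostatin M, had probe sets that disagreed in the response to treatment. The main probe set, 226621_at, had 11.07 and 10.75 in 3D treated arrays and 11.44 and 11.42 in 3D control arrays. The 2D treated arrays gave 12.10 and 12.00, against 11.63 and 11.41 in 2D control arrays. Treated spheroids were the lowest group and treated monolayers the highest, with no overlap between them and the controls. The response was −0.52 ± 0.13 in 3D (limma, adjusted p = 0.100) and 0.53 ± 0.13 in 2D (0.360), and their difference was −1.05 ± 0.19 (0.0857). Without 3D treated replicate 1 the test was passed both in 3D (0.0482) and for the difference (0.0312). Treated spheroids were lower than treated monolayers by 1.14 (adjusted p = 0.0109, and 0.0552 or 0.0514 without one of the 2D treated arrays).

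A second OSMR probe set, 205729_at, had 9.17 and 9.22 in 3D treated arrays and 9.70 and 9.80 in 3D control arrays. The 2D treated arrays gave 10.17 and 10.10, against 9.50 and 9.53 in 2D control arrays. This probe set fell in 3D by 0.55 on the log2 scale (limma, adjusted p = 0.00816), while the 2D difference was 0.62 (0.0562). The call in 3D was lost when only the 3D arrays were fitted (0.0905). The difference between the 2 responses was −1.17 (adjusted p = 0.00940), and no single array decided it. The third probe set, 1554008_at, ran the other way. It had 11.47 and 11.96 in 3D treated arrays and 9.63 and 9.74 in 3D control arrays, and in 2D it had 8.24 and 7.78 in treated and 7.67 and 7.88 in control arrays. It rose in 3D by 2.03 (limma, adjusted p = 0.0162). It was higher in treated spheroids than in treated monolayers by 3.71 (0.00371) and in 3D control than in 2D control by 1.91 (0.0265). The rise in 3D was lost without 3D control replicate 1 (0.0761) or replicate 2 (0.0709), and the difference between the controls without either 3D control array (0.0882 and 0.108) or either 2D control array (0.0845 and 0.0840). Which transcripts of OSMR each probe set reads was not tested, and no single direction can be given for the gene.

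**Figure D3:**
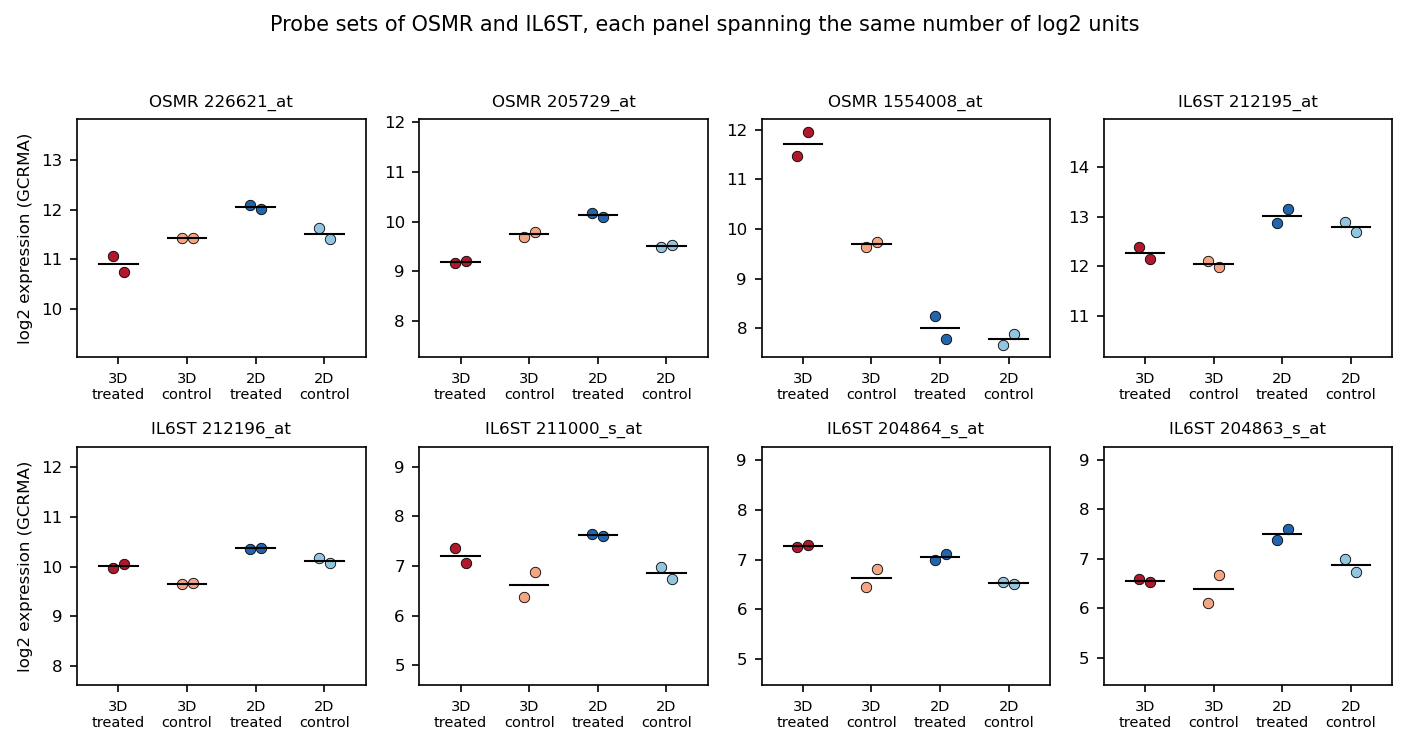
Level on each array (y axis, log2 GCRMA value) of the 3 probe sets of OSMR and of the 5 probe sets of IL6ST that varied between arrays; points are single arrays, horizontal lines are means of 2 arrays, and each panel spans the same number of log2 units. Treated spheroids are the lowest group in the OSMR probe sets 226621_at and 205729_at and the highest in 1554008_at.

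IL11RA (chr9:34652185-34661902), the chain that binds IL-11, differed by culture in its main probe set, 204773_at, and had no called response to treatment. The second probe set, 1552646_at, had no call. It had 3.19 on every 3D array and 2D treated array, and 3.16 and 3.26 in 2D control arrays. The main probe set had 4.44 and 4.16 in 3D treated arrays, against 5.86 and 5.57 in 2D treated arrays. In 3D control arrays it was 4.59 and 4.62, against 5.82 and 5.79 in 2D control arrays. All 4 spheroid arrays lay below all 4 monolayer arrays. It was lower in treated spheroids than in treated monolayers by 1.42 ± 0.14 (2.67-fold, limma, adjusted p = 0.00738). It was lower in 3D control than in 2D control by 1.21 ± 0.14 (2.31-fold, adjusted p = 0.0226), and without any 1 of the 4 control arrays that call was lost (0.0704 to 0.0854). The response to treatment was −0.30 (0.352) in 3D and −0.09 (adjusted p = 1) in 2D.

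IL6R (chr1:154405343-154469450), the chain that binds IL-6, had 5.87 and 6.12 in 3D treated arrays and 6.61 and 6.58 in 3D control arrays. The 2D treated arrays gave 5.17 and 5.66, against 5.88 and 5.88 in 2D control arrays. The treated arrays lay below the controls within each culture, and the differences did not pass the test, at −0.60 in 3D (limma, adjusted p = 0.158) and −0.46 in 2D (0.692). The 3D minus 2D differences of 0.58 among treated arrays (0.138) and 0.71 among controls (0.120) did not pass it either. Without 2D treated replicate 2 the difference among treated arrays was 0.83 (0.0452), and it also passed after quantile normalization (0.0482) and with dim probe sets filtered out (0.0447). The difference among controls passed with dim probe sets filtered out (0.0353) and with only the compared arrays (0.0382). Of 15 alternatives, 12 left the difference among treated arrays short of the threshold, and 13 that among controls. A second IL6R probe set, 205945_at, differed with treatment in 3D by −0.20 (limma, adjusted p = 0.937). Between cultures it gave 0.55 among treated arrays (0.329) and 0.33 among controls (0.662). The probe set 217489_s_at lay below the array median on every array.

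LIFR (chr5:38474668-38608403), which pairs with gp130 for LIF, had 5.45 and 5.10 in 3D treated arrays and 5.89 and 5.81 in 3D control arrays. Monolayers gave 6.16 and 5.81 with the cytokines (2D treated), against 5.82 and 5.93 in 2D control arrays. In this main probe set, 225575_at, only the treated spheroids stood below the other groups. The difference with treatment was −0.58 ± 0.17 in 3D (limma, adjusted p = 0.144), and treated spheroids differed from treated monolayers by −0.71 (0.0686). With dim probe sets filtered out both passed (0.0471 and 0.0191), and the second also passed after centring on array medians (0.0374). Of the other LIFR probe sets, 227771_at differed with treatment in 3D by 0.0023 and 225571_at by −0.39 (limma, adjusted p = 0.485). Neither passed the test. The remaining ones, 205876_at and 229185_at, lay below the array median on most or all arrays.

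SOCS3 (chr17:78356778-78360925), the STAT3-induced inhibitor of gp130 signaling, had 7.49 and 6.96 in 3D treated arrays and 7.39 and 7.67 in 3D control arrays. Monolayers gave 6.63 and 7.05 with the cytokines (2D treated), against 6.34 and 6.39 in 2D control arrays. The spheroid groups overlapped and the monolayer groups did not. The difference with treatment was −0.31 in 3D (95% interval −0.98 to 0.36, limma, adjusted p = 0.620) and 0.47 in 2D (−0.20 to 1.14, adjusted p = 0.911). Between the controls the 3D minus 2D difference was 1.16 (0.0768). It passed the test after quantile normalization (0.0475), after centring each array on its median (0.0458) and with dim probe sets filtered out (0.0186). In 12 of 15 alternatives it did not pass. Other SOCS3 probe sets had no call, with 0.23 between controls for 206359_at (limma, adjusted p = 0.580) and 0.37 for 206360_s_at (0.592). With treatment in 3D, 206360_s_at had the opposite sign to the main probe set, at 0.23 (0.823). The probe set 214105_at carried a single value on all arrays.

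Across the other comparisons, no member was called when monolayers were treated, where 0.197% of all genes were called by limma. IL11 and OSMR were the 2 members with an unadjusted p under 0.05 there. Between treated cultures, 2 members were higher in spheroids (IL11 and LIF) and 3 were lower (IL6ST, OSMR and IL11RA), against 9.06% of genes called higher and 14.5% lower (23.6% in all). The call for LIF, 0.98 on the log2 scale (adjusted p = 0.0264), was lost without either 3D treated array (0.0520 and 0.100), either 3D control array (0.0747), 2D treated replicate 1 (0.0759) or either 2D control array (0.0549). Between untreated cultures, 2 members were lower in spheroids (IL11 and IL11RA), against 4.9% of genes called lower, 5.77% called higher and 10.7% in all. These 2 comparisons share their arrays with the treatment responses above.

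Beyond the 10 genes, lists of the same pathway were followed in spheroids. The 8 measured genes of the other gp130 cytokines and receptors had no called member in 3D, against 16.4% of all genes (3 at an unadjusted p under 0.05 in limma). OSM, CNTF, CTF1 and IL27, the genes of 4 further ligands, were below the array median on every array. EBI3, a subunit of the cytokines IL-27 and IL-35, had 7.50 and 7.58 in 3D treated arrays, against 6.48 and 6.58 in 3D control arrays.

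Of the JAK and STAT signal transducers, 1 of 9 measured genes rose, 1 fell and 7 did not pass the test, with a median log2 difference of −0.21, against 5.53% of all genes called higher and 10.8% lower. JAK1, the kinase that gp130 depends on most, had 11.15 and 10.96 in 3D treated arrays, against 10.06 and 9.99 in 3D control arrays, a rise of 1.03 (limma, adjusted p = 0.0147). STAT3, the main transcription factor of the pathway, had 10.98 and 10.93 in 3D treated arrays, against 11.57 and 11.46 in 3D control arrays. It fell by 0.56 (log2, adjusted p = 0.0143), and the 2D difference was 0.15. The STAT3 probe set with the largest 3D change gave −0.86 and did not pass (limma, adjusted p = 0.143). A limma fit to only the 3D arrays lost the calls of JAK1 (adjusted p = 0.0857) and STAT3 (0.0987). The call of JAK1 was lost without 3D control replicate 1 (0.0607) or replicate 2 (0.0706). That of STAT3 was lost without 3D treated replicate 2 (0.0511) or 3D control replicate 1 (0.0522).

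Of the SOCS, PIAS and phosphatase inhibitors other than SOCS3, 1 of 14 rose, a share close to the 5.53% of all genes, and 13 did not pass the test (median 0.00). The one was SOCS2, known as a brake on growth hormone signaling, with 9.18 and 8.50 in 3D treated arrays, against 6.25 and 6.64 in 3D control arrays. Its rise of 2.39 (limma, adjusted p = 0.0191) was lost without either 3D control array (0.0824 and 0.0624) and without either 2D treated array (0.0564), and with the replicate block (0.0553).

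In spheroids, more of the genes listed as STAT3 targets were called higher than lower. The list was written with earlier results of these arrays known, so its count is no independent evidence of a direction. There were 17 measured targets, and 8 of them rose while 1 fell and 8 stayed short of the threshold, with a median log2 difference of 0.75 beside 0 over all genes, of which 5.53% were called higher and 10.8% lower. KLF6, a zinc-finger transcription factor, had 11.94 and 12.21 in 3D treated arrays, against 9.45 and 9.59 in 3D control arrays (2.55, limma, adjusted p = 0.00459). JUNB, an AP-1 subunit, differed by 1.81 (0.00844). MCL1, an antiapoptotic BCL2 relative, differed by 1.28 (0.00461). IRF1, a transcription factor of the interferon and TNF responses, differed by 1.71 (0.0124, and 0.0589 or 0.0510 without one of the 3D control arrays). The one that fell was CEBPD, a C/EBP factor of the acute phase response, by 1.74 on the log2 scale (0.00467). A limma fit to only the 3D arrays lost the calls of KLF6 (adjusted p = 0.0588), JUNB (0.0966), IRF1 (0.120) and CEBPD (0.0824). It kept that of MCL1. Many of these genes are also known targets of NF-κB or of TGFβ.

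The acute phase proteins, which IL-6 induces in liver, had 3 of 15 measured genes lower in treated spheroids and 12 that did not pass, with a median of −0.37, against 10.8% of all genes called lower. FGA, the fibrinogen alpha chain, had 4.58 and 4.47 in 3D treated arrays, against 8.40 and 8.70 in 3D control arrays. Monolayers gave 6.41 and 6.27 with the cytokines (2D treated), against 6.78 and 6.49 in 2D control arrays. It fell by 4.02 on the log2 scale in 3D (limma, adjusted p = 0.00187), and 3D and 2D responses differed by −3.73 (0.00989). FGL1, a fibrinogen-like protein of hepatocytes, fell by 1.97 (0.00769). FGG, the fibrinogen gamma chain, fell by 3.59 (0.0354). A limma fit to only the 3D arrays lost the calls of FGL1 (adjusted p = 0.102) and FGG (0.140) and kept that of FGA. The call of FGG was lost without any 1 array other than 3D treated replicate 2, with adjusted p of 0.0542 to 0.143.

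Of the factors known to act on the IL6 promoter or mRNA, 8 of 9 measured genes rose in spheroids, with a median of 1.89, against 5.53% of all genes called higher. FOSL1, an AP-1 subunit, had 7.45 and 8.20 in 3D treated arrays, against 4.44 and 4.96 in 3D control arrays (3.12, limma, adjusted p = 0.0117). JUN, another AP-1 subunit, had 12.70 and 12.74 in 3D treated arrays, against 9.70 and 9.79 in 3D control arrays (2.97, 0.00267). NFKBIZ, the IκBζ cofactor that IL6 induction needs in mouse macrophages, differed by 2.22 (0.00138). ARID5A, which stabilizes IL6 mRNA, differed by 1.83 (0.00643). Genes known to lower IL6 were among those that rose. ATF3, a repressor of IL6 in mouse macrophages, had 9.69 and 10.44 in 3D treated arrays, against 7.89 and 8.02 in 3D control arrays (2.11, 0.0385). ZFP36, which promotes the decay of cytokine mRNAs, had 11.50 and 12.16 in 3D treated arrays, against 9.96 and 10.09 in 3D control arrays (1.80, 0.0255). A limma fit to only the 3D arrays lost the calls of FOSL1 (adjusted p = 0.127), ARID5A (0.0945), ATF3 (0.155) and ZFP36 (0.161). It kept those of JUN and NFKBIZ. The call of ATF3 was lost without any 1 array other than 3D treated replicate 1 (0.0636 to 0.153). That of ZFP36 was lost without either 3D control array (0.112 and 0.0988), either 2D treated array (0.0556) or either 2D control array (0.0701). This list was written with earlier results of these arrays known, so its count is no independent evidence of a direction. The receptor sheddases, enzymes and partners that release receptor chains from the membrane, had 2 of 6 genes higher (5.53% of all genes). They were RHBDF2, by 0.98 (0.0246), and ADAM17, by 0.71 (0.0480). Both calls were lost without either 3D control array (0.101 and 0.108 for RHBDF2, 0.182 and 0.119 for ADAM17), without 3D treated replicate 1 (0.0565 and 0.0669) and without any 1 of the 2D arrays (0.0516 to 0.112).

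In spheroids limma called 25 of the 78 genes of these 7 lists, against 16.4% of all genes, and 41 had an unadjusted p under 0.05. In monolayers limma called 0 of them, against 0.197% of all genes, and 21 had an unadjusted p under 0.05. The counts 41 and 21 have no share of all genes at that threshold beside them and are not read as a response. Beside these lists, 7 of the 9 epithelial and A549 markers fell in treated spheroids, against 10.8% of all genes, and their part in the results was not tested. The test of the difference between cultures was passed by 8 of the 78 genes, against 3.26% of all genes. These lists were written with earlier results of these arrays known, so their counts are no independent evidence about the pathway.

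**Figure D4:**
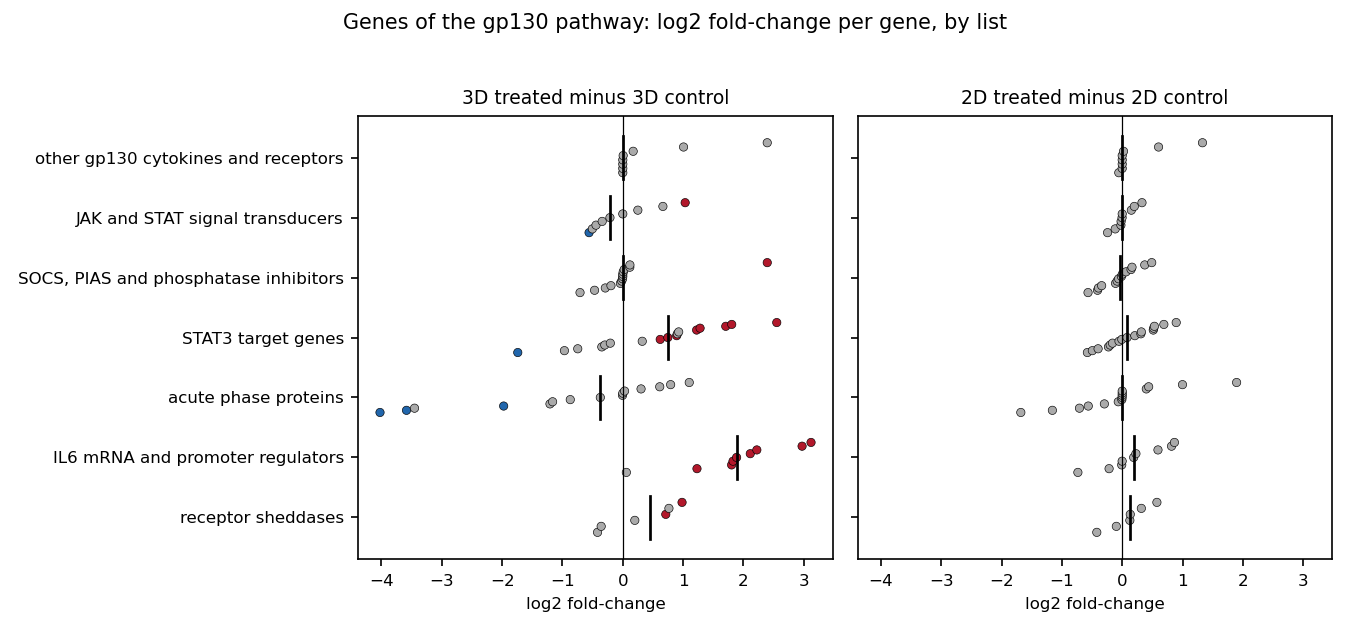
Log2 fold-change with treatment (x axis) of each measured gene of the 7 pathway lists, in 3D (left) and 2D (right); points are genes, red for called higher and blue for called lower by limma, grey for not passed, and vertical bars are list medians. In 3D the factors that act on IL6 lie farthest to the right (median 1.89), the acute phase proteins reach −4.02, and in 2D all points are grey.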

How the data were processed

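A549 total RNA was hybridised to 8 Affymetrix U133 Plus 2.0 arrays, 2 per group. The authors deposited log2 expression values per probe set, background-corrected, normalised and summarised with GCRMA in Bioconductor (version not given in the sources used here). Their processing notes name limma 3.6.9. Of 54675 probe sets, 62 control probe sets were left out. Probe sets were named through the platform annotation (41091 with 1 gene, 1801 with several, 11721 unnamed), and those with several genes were not used for any gene. GCRMA gave 15259 probe sets one value on all arrays, which adds zero spread to the fit, and raw intensities and detection calls were not used here. The 4 group means were fitted over all 8 arrays by lmFit and eBayes (limma 3.58.1, R 4.3.3, 4 residual degrees of freedom), with Benjamini-Hochberg adjustment over all 54613 probe sets at 0.05. The number of arrays limits the precision. Comparisons were 3D and 2D treated minus control, their difference, and 3D minus 2D among control and among treated arrays. Errors are SE. The fit was tested on simulated data. Gene positions and promoters were taken from RefSeq tables (GRCh38.p14) by symbol, and motifs were matched with Python 3.11.15. No promoter of LIF or CLCF1 was used here. The text names all family members, of each pathway list up to 4 called genes with the largest change (plus MCL1, ARID5A, ZFP36, LYZ, ITGAM and CD79A, added after their values were seen), genes needed to place a list near background, and the 5 genes most correlated with IL6. EBI3 and IL27RA, which were not called in 3D, were named outside this rule. The members and lists were chosen with earlier results of these data known. Alternatives were a trended prior, quantile normalization, median centring, a filter on probe sets above the array median on fewer than 2 arrays, another probe set per gene, only the compared arrays, a replicate block and each array left out.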

Additional observations from a re-analysis of the deposited data

Results flagged for a closer look

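For 12 of the genes named or listed, the response to TNF and TGFβ differed between spheroids and monolayers. This is by the test of the difference itself (limma, adjusted p under 0.05). In their main probe sets, 3.26% of all genes passed it. The 12 come from several lists chosen with earlier results of these data known, so their count is not a rate. The difference is the 3D minus the 2D response on the log2 scale, and each value stands for the probe set of the gene described above or its main one. IL11 differed by 5.75 (adjusted p = 0.0132, 3D 6.61, 2D 0.86), a fitted value whose size is not settled, because both 3D control arrays carried one identical value. OSMR differed by −1.17 in the probe set 205729_at only (0.00940, 3D −0.55, 2D 0.62).

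Among the STAT3 pathway genes, STAT3 itself differed by −0.71 (limma, adjusted p = 0.0452), CEBPD by −1.95 (0.0199), MCL1 by 1.44 (0.0188) and KLF6 by 3.13 (0.0153). FGA, the fibrinogen alpha chain, differed by −3.73 (0.00989). Of the factors that act on IL6, NFKBIZ differed by 1.40 (0.0155), ARID5A by 1.84 (0.0334) and JUN by 2.38 (0.0205). Of the A549 markers, AKR1B10, an aldo-keto reductase, differed by −0.61 (0.0250) and NQO1, a quinone reductase, by −1.31 (0.0468).

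Leaving out 1 array ended this call for STAT3 (6 of the 8 arrays, adjusted p up to 0.111), CEBPD (2D treated replicate 1, 0.0537), ARID5A (6 arrays, up to 0.0804), AKR1B10 (4 arrays, up to 0.0595) and NQO1 (6 arrays, up to 0.111). The replicate block ended it for IL11 (0.0510), CEBPD (0.0538), MCL1 (0.0520), JUN (0.0599), ARID5A (0.0801) and AKR1B10 (0.0518). Taking the probe set with the largest 3D change ended it for STAT3 (0.334), MCL1 (0.0646) and NFKBIZ (0.0782), and quantile normalization for NQO1 (0.0544).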

How the results depend on the processing

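With 2 arrays a group, the count of calls moved with the processing. The counts of all genes called were 3235 for treatment in 3D, 39 for treatment in 2D, 645 for the difference of responses, 2110 between controls and 4667 between treated cultures, and those of members 2, 0, 1, 2 and 5. A trended prior gave 824 genes for the difference (2 members), and quantile normalization gave 2315 between controls (4 members), out of 19775 genes. Centring each array on its median gave 109 genes in 2D and 2866 between controls (4 members). For the difference it gave 1429 genes (3 members, 29.4% of the calls higher in 3D, against 40.5% as deposited). Filtering dim probe sets gave 4959 genes in 3D (5 members), 232 in 2D, 2114 for the difference (3 members) and 3969 between controls (6 members). Fitting only the compared arrays gave 529 genes in 3D (0 members), 6 in 2D, 254 between controls and 338 between treated cultures (0 members). The replicate block gave 2100 genes in 3D, 14 in 2D, 226 for the difference (0 members) and 902 between controls (1 member). Replicate numbers were not taken to pair the arrays, since the correlations of same-numbered deviations ran from −0.01 to 0.28 over 28183 probe sets.

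Leaving out each array in turn gave 1719 to 3715 genes in 3D, 14 to 472 in 2D, 557 to 2262 for the difference, 1022 to 1383 between controls and 2636 to 4910 between treated cultures. The highest count in 2D came without 2D treated replicate 2, and that for the difference without 3D treated replicate 1. Among calls for the difference, 261 were higher and 384 lower over all 8 arrays, and the majority turned to 1399 higher and 863 lower without 3D treated replicate 1 and to 1215 and 522 without replicate 2. For members it gave 1 to 3, 0 to 0, 1 to 2, 0 to 2 and 2 to 4.

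Of 1966 recomputed differences of single genes, 1476 kept their direction and their side of the threshold, 440 lost the call, 25 gained it and 25 changed sign. Taking the probe set with the largest 3D change turned OSMR to 2.03 in 3D, 1.79 for the difference, 1.91 between controls and 3.71 between treated cultures, IL6ST to 0.10 between controls and 0.23 between treated cultures, and PTPN2 to −0.79 and −1.67. Of these, the OSMR and IL6ST differences between treated cultures and both PTPN2 differences had been called in the main fit. All remaining reversals were of uncalled differences. Quantile normalization gave IL6R 0.00022 and IL6ST −0.0089 for the difference and LIFR 0.080 between controls, and centring gave IL6ST −0.071. Leaving out 1 array gave, for the difference of responses, −0.12 to 1.53 for IL6, −0.14 to 0.15 for IL6ST (−0.11, −0.058 and −0.096 among them) and −0.38 to 0.12 for IL6R. In 2D it gave −0.14 to 0.22 for LIF (−0.074 among them), −0.068 to 0.28 for LIFR and −0.24 to 0.057 for IL11RA, and between controls −0.079 to 0.026 for LIFR (0.015 among them) and −0.20 to 0.020 for OSMR. The cause was not tested.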

Other observations

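The 5 genes whose main probe set followed IL6 most closely over the 8 arrays were NFKBIE (Pearson r = 0.972), MAML2 (0.965), IRF1 (0.960), GALNT18 (0.954) and PPA1 (0.954), out of 12569 genes that exceeded the median of the array on 2 arrays or more. NFKBIE encodes IκBε, an inhibitor of NF-κB, and MAML2 a coactivator of Notch. These correlations are a description, since the 8 points are 4 groups of 2 arrays. The treated minus control difference of NFKBIE was 1.55 in 3D and 1.19 in 2D on the log2 scale, and that of IRF1 was 1.71 and 0.90.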
